A study of Mus musculus with 287 samples.

Results

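The 10 genes described here are the transcription factors and companion genes that mark neuronal commitment and intermediate progenitors in the developing cortex: Neurog1, Neurog2, Eomes, Insm1, Hes6, Btg2, Gadd45g, Sstr2, Rhbdl3 and Mfap4. They were taken by symbol from a table of exon counts for 55359 genes, and all 10 were found in it. In the developing cortex, radial glia divide at the ventricle and pass through an intermediate progenitor that divides again to give excitatory neurons. Proneural factors of the basic helix-loop-helix family start this step by binding E boxes as partners of E proteins, and they raise Notch ligands that hold neighbouring cells in the progenitor state. Eomes and Insm1 mark and drive the intermediate progenitor itself, and several of the other genes are known from the same transient window in mouse cortex.

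The cells came from cerebral organoids grown from mouse embryonic stem cells, all of the genotype MADM-11GT/TG;Emx1-CreER+/-. In MADM, Cre recombination between homologous chromosomes during a division can leave the daughters of a progenitor with different fluorescent proteins, here red or green, so that the descendants form a clone. Recombination was induced on day 13 with 60 nM 4-OHT (4-hydroxytamoxifen), which activates the CreER protein made from Emx1, a gene of dorsal telencephalic progenitors, and organoids were collected on day 20. Single fluorescent cells, which the labels' protocols call neurons, were drawn into a glass pipette and sequenced by Smart-seq3, which reads full-length transcripts. Both groups share genotype, induction and age, and they differ in the labelled clone type, SN or N, whose meaning the labels do not give. SN clones had labelled sizes of 2 to 6 cells (median 3) and N clones of 4 to 19 cells (median 6.5). No organoid, culture or stem cell clone is named, so the p-values below measure the spread between clones, which can share an organoid, and chosen cells are no sample of all progenitors.

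A cell was kept where 1000 genes or more were counted, which held for 86.97% of the cells that carry a clone label and left out 37 (16 SN and 21 N). The kept cells of the 46 SN clones numbered 49, 42 and 40 on plates 1, 2 and 3, and those of the 22 N clones 41, 38 and 37. Their exon totals ran from 6171 to 13040432 counts. The median total was 1365828 for the SN group and 1887116.5 for the N group. Nearly all kept cells held transcripts of young neurons, with Stmn2 in 96.8% and Dcx in 95.1%, and Fabp7, known from radial glia, in 95.5%. The cell cycle genes Top2a and Mki67 were counted in 66.4% and 44.9% of cells. Transcripts of neurons, radial glia and the cell cycle therefore occurred in overlapping sets of cells, and the 10 genes are described over all kept cells, with no cell type assigned.

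The 10 genes differed widely in how many cells held them. A gene was called detected in a cell with at least 1 exon count, and shares carry 95% Wilson intervals that cover counting error only. Hes6 was detected in 59.5% of cells (53.3 to 65.4), the highest share of the 10. Insm1 followed in 47.4%, Gadd45g in 46.96%, Eomes in 42.9% and Btg2 in 42.1%. The intervals of these 4 genes overlap, and that of Insm1 (to 53.6%) also reaches that of Hes6. The order of these genes was not tested and is not read as fixed. Neurog2 was detected in 58 cells (23.5%, 18.6 to 29.1), Mfap4 in 47 (19.0%), Sstr2 in 46 (18.6%) and Rhbdl3 in 38 (15.4%). Neurog1 was the least often detected, in 14 cells (5.67%, 3.41 to 9.29).

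**Figure D1:**
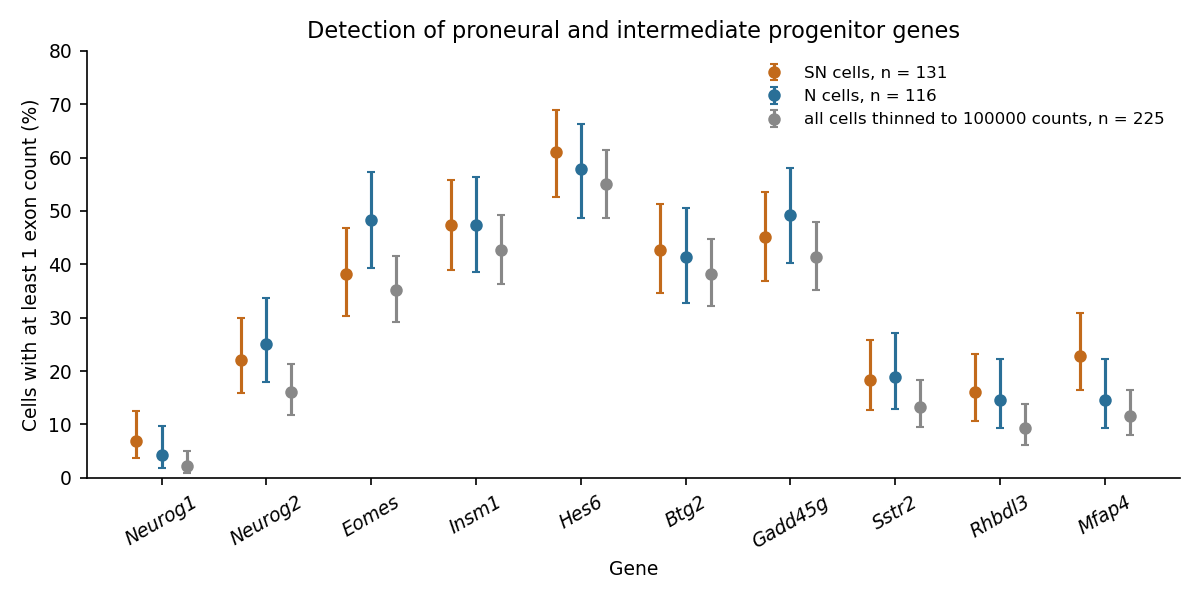
Share of cells with at least 1 exon count of each gene (vertical axis, percent) in SN cells, in N cells and in all cells thinned to 100000 counts. Points are shares and bars 95% Wilson intervals. Hes6 is highest and Neurog1 lowest in all 3 sets, and the SN and N intervals overlap for every gene.

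Detection followed sequencing depth closely. In the 82 cells with the lowest exon totals, Eomes was detected in 18.3% and Hes6 in 37.8%, and in the 83 with the highest totals in 69.9% and 90.4%. Neurog2 went from 7.32% to 42.2% and Rhbdl3 from 1.22% to 27.7% between the same sets. Neurog1 was not detected in any of the 82 cells with the lowest totals, which allows a share of up to 3.66%, and it was detected in 12.05% of those with the highest totals. When each cell with at least 100000 counts was thinned to that number, which left out 22 kept cells, Hes6 was detected in 55.1%, Insm1 in 42.7%, Gadd45g in 41.3%, Btg2 in 38.2%, Eomes in 35.1% and Neurog2 in 16.0%. Thinning left Neurog1 in 2.22% of cells. The order of the 10 genes at equal depth differed from the order at full depth only among genes whose intervals overlap.

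A kept cell held a mean of 3.21 ± 2.45 (SD over all kept cells) of the 10 genes, with a median of 3. None of the 10 was counted in 29 cells, 73 cells had 5 or more, and 7 cells had 9. No cell had all 10. The 7 cells with 9 genes had 4699392 or more exon counts each and came from 7 clones, 3 of them SN and 4 N. In 3 of these 7 cells the missing gene was Neurog1. The number of genes per cell had a Pearson correlation of 0.65 with the log10 exon total over all kept cells, and of 0.54 after thinning, so that equal depth did not remove the relation. SN cells (mean 3.21 ± 2.44 SD) and N cells (mean 3.22 ± 2.48 SD) had nearly the same mean.

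**Figure D2:**
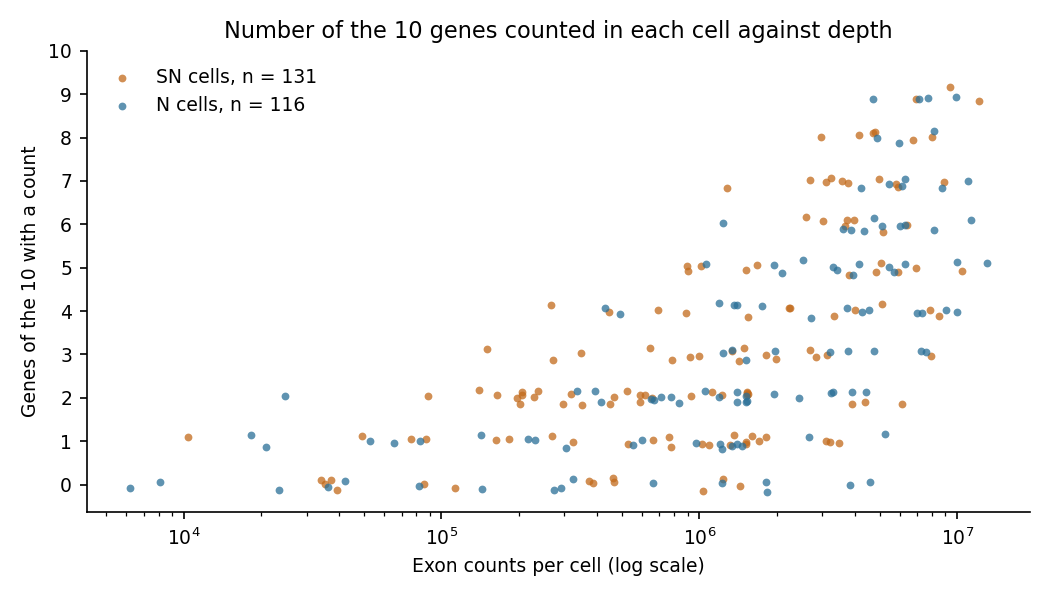
Number of the 10 genes with a count in each kept cell (vertical axis, points spread slightly) against exon counts per cell (horizontal axis, log scale), coloured by clone type. Cells with 9 of the 10 genes all have 4699392 counts or more, and the colours are mixed throughout.

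Neurog1 and Neurog2 encode the proneural basic helix-loop-helix factors of dorsal telencephalic progenitors, which start neuronal differentiation. Neurog2 had a median of 15.0 exon counts per 1000000 (CPM) in the 58 cells that held it, with a range of 0.0911 to 398 CPM. Neurog1 had a median of 2.53 CPM in its 14 cells, with a range of 0.125 to 182.5 CPM. A single red cell of SN clone 20 gave the highest Neurog1 value, and the next cells reached 46.7 and 10.4 CPM. The 5 highest cells held 94.9% of the summed Neurog1 CPM, so its mean level rests on very few cells. Both genes were counted in 8 cells, which is 57.1% of the cells with Neurog1 and 13.8% of those with Neurog2. Summed over the cells of a clone, Neurog2 was at 0 in 20 of 42 SN clones (median 0.225, highest 92.7 CPM) and in 6 of 20 N clones (median 4.96, highest 39.1 CPM). Neurog1 was at 0 in 35 of 42 SN clones (highest 33.1 CPM) and 15 of 20 N clones (highest 7.76 CPM).

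Eomes (Tbr2), a T-box factor that defines cortical intermediate progenitors, had a median of 35.5 CPM in the cells with a count, with a range of 0.159 to 1093 CPM. The highest value came from a green cell of N clone 16. Eomes was at 0 in 12 of 42 SN clones, whose levels had a median of 5.08 and a highest value of 210 CPM. It was at 0 in 2 of 20 N clones, with a median of 36.4 and a highest value of 304 CPM. Most N clones thus lay above the SN median, yet the groups overlapped over nearly their whole range. Insm1, a zinc finger factor that promotes the formation of intermediate progenitors in mouse cortex, had a median of 47.6 CPM in the cells that held it and a highest value of 578 CPM in a green cell of N clone 68. Across SN clones its median was 31.2 CPM (8 of 42 at 0, highest 127.55), and across N clones 38.7 CPM (1 of 20 at 0, highest 230.9).

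Hes6, a relative of the Hes repressors that opposes Hes1 and favours neuronal differentiation, was the most evenly spread of the 10 genes. The cells with a count had a median of 74.9 CPM and a highest value of 993 CPM, and its 5 highest cells held 17.5% of the summed CPM, the lowest such share among the 10. It was counted in 41 of 42 SN clones (median 70.4, highest 200.0 CPM) and in all 20 N clones (lowest 0.359, median 41.0, highest 130 CPM). Btg2 (Tis21), an antiproliferative gene known from cortical progenitors that are about to produce neurons, had a median of 56.6 CPM in the cells with a count. Its highest value, 1591 CPM from 2231 counts, and its second, 1034 CPM, both came from N clone 16. The median of Btg2 across SN clones was 32.4 CPM (highest 160.6), and across N clones 47.8 CPM (highest 179.3). Gadd45g, a growth arrest gene of the same transient state, had a median of 49.5 CPM in the cells with a count, and its 2 highest cells, at 1386 and 1193 CPM, were in N clone 34. Gadd45g had a median of 18.4 CPM across SN clones (7 of 42 at 0, highest 419) and of 50.2 CPM across N clones (3 of 20 at 0, highest 552).

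Since proneural factors bind E boxes, the upstream sequences of the genes were searched for them. Those of Hes6 and Gadd45g are shown because they held E boxes, beside that of Eomes, which held none. The sequences are the 250 bases before the RefSeq start site, 5′ to 3′ on the gene's strand, in build GRCm38.p6, and capitals mark each E box (CANNTG, which reads the same on both strands). The deposited counts use build GRCm39, so these positions belong to RefSeq alone. For Hes6 the table holds a pair of start sites, with 3 E boxes at chr1:91414039-91414288 and 1 at chr1:91413223-91413472, both on the minus strand. The Gadd45g sequence, chr13:51846425-51846674 on the plus strand, holds 3, and that of Eomes, chr9:118477939-118478188 on the plus strand, holds 0.
Hes6, first start site: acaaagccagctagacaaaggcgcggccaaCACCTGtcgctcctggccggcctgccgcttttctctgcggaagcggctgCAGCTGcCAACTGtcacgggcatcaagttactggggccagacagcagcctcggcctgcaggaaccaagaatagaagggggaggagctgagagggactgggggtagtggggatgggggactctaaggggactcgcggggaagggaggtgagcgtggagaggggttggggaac
Hes6, second start site: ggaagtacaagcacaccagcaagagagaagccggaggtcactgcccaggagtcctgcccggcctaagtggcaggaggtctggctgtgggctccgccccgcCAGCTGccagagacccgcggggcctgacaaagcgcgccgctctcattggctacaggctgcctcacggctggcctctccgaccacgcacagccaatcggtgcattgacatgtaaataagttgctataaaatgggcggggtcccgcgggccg
Gadd45g: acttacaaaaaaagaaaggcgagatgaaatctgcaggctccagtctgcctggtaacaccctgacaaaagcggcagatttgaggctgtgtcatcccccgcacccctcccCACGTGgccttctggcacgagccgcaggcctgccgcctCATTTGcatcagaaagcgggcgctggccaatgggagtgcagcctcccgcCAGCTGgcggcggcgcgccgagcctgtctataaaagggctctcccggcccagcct
Eomes: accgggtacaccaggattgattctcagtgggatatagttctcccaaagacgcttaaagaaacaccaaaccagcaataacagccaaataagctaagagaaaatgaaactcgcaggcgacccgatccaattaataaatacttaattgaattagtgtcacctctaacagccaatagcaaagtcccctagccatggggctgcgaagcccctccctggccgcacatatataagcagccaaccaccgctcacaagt
Of 32851 RefSeq upstream sequences of this length, 66.2% hold at least 1 CANNTG, 14.4% hold CAGATG or its reverse complement CATCTG, and 13.0% hold CAGCTG, so an E box is the common case. CAGCTG, which is itself a CANNTG, occurs in both Hes6 sequences and in that of Gadd45g. RefSeq sequences were matched for 7 of the 10 genes, the 3 above and Neurog1, Neurog2, Btg2 and Sstr2. The sequences of these last 4 hold 0 E boxes in the same window. A match is a run of letters and was not tested as a binding site.

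Sstr2, a receptor for somatostatin, Rhbdl3, a member of the rhomboid family of membrane proteins, and Mfap4, a secreted protein of the extracellular microfibrils, lie on chromosome 11 in RefSeq (GRCm38.p6), the chromosome that carries the MADM cassettes. The other 7 genes lie on chromosomes 1, 2, 3, 9 and 13. Sstr2 had a median of 12.4 CPM in 46 cells and a highest value of 133.01 CPM in a green cell of SN clone 51. Rhbdl3 had a median of 6.29 CPM in 38 cells, and its 5 highest cells held 72.9% of the summed CPM, led by a red cell of N clone 68 at 424 CPM. Mfap4 had a median of 13.3 CPM in 47 cells and a highest value of 176.6 CPM in a red cell of SN clone 19. The median SN clone was at 0 for all 3 genes. The median N clone was at 1.50 CPM for Sstr2, 0 for Rhbdl3 and 0.884 CPM for Mfap4. Mfap4 also varied with the plate. It was detected in 25.6% of cells on plate 1, 26.2% on plate 2 and 3.90% on plate 3, while plate medians of exon counts were 1522400, 2125500 and 1316900. Rhbdl3 went the other way, from 7.78% on plate 1 to 23.4% on plate 3.

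Intron counts, deposited in a separate table, separated Rhbdl3 from the other genes. Rhbdl3 had an intron count in 45.7% of cells (39.6 to 51.98), against an exon count in 15.4%. In 86 of these cells its counts were in introns only, and its intron counts summed to 23872 against 3685 in exons. For the other 7 genes with an intron the intron share was lower than the exon share. Btg2 had intron counts in 40 cells (16.2%), Gadd45g in 38 (15.4%), Hes6 in 35 (14.2%), Mfap4 in 15 (6.07%), Eomes in 14 (5.67%) and Neurog2 in 4 (1.62%). No intron count was found for Sstr2, which allows a share of up to 1.21% of cells. Neurog1 and Insm1, known as genes of a single exon, have no intron to count. Rhbdl3 intron counts were found in 41.2% of SN cells and 50.9% of N cells. Strand use in the counting is not given in the sources used here, so intron reads of Rhbdl3 cannot be told apart from reads of any transcript that overlaps its introns.

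**Figure D3:**
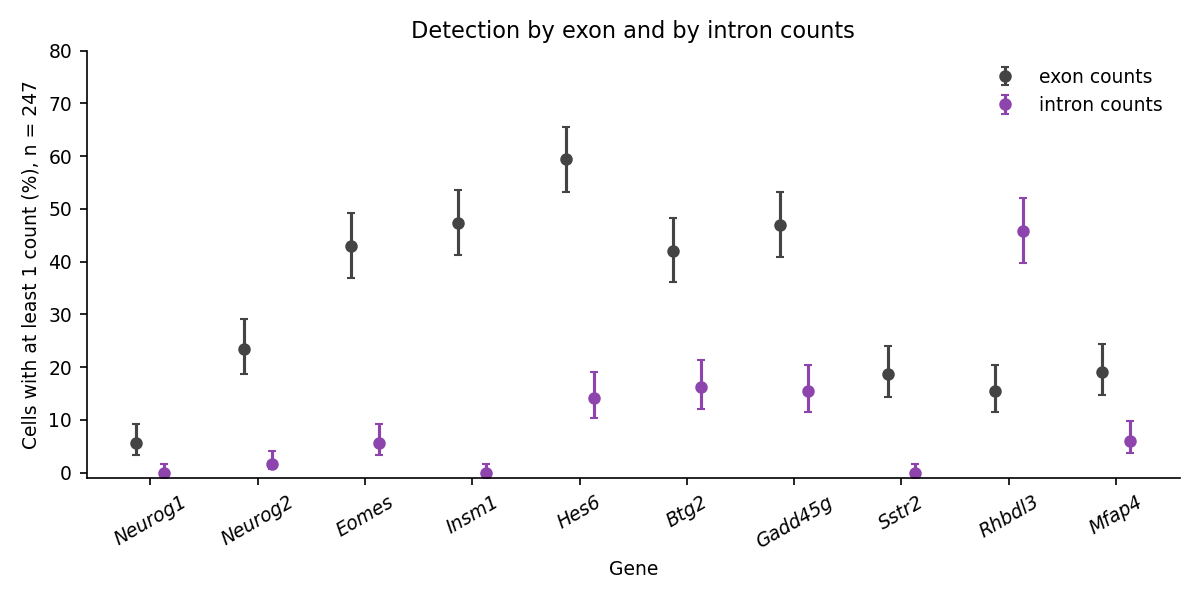
Share of kept cells with at least 1 exon count or at least 1 intron count of each gene (vertical axis, percent). Points are shares and bars 95% Wilson intervals. Rhbdl3 alone has a higher intron (45.7%) than exon share (15.4%).

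The genes were next read in combination. Eomes together with Neurog1 or Neurog2 was counted in 39 cells (15.8%), Eomes without either in 67 (27.1%), one of the Neurog genes without Eomes in 25 (10.1%) and none of the 3 in 46.96% of cells. After thinning these shares were 7.56%, 27.6%, 9.78% and 55.1%, so the fall was in the cells that held both kinds. In SN cells, 13.0% held Eomes with a Neurog gene and 13.0% a Neurog gene without Eomes, and in N cells 19.0% and 6.90%. After thinning these shares were 5.79% and 11.6% in SN cells and 9.62% and 7.69% in N cells. The set of Neurog2, Eomes, Insm1 and Hes6 was counted in full in 27 cells, 11 SN and 16 N, and after thinning in 5 SN and 7 N cells. Cells with neither a Neurog gene nor Eomes, Insm1 or Hes6 numbered 52, with a median of 347800 exon counts.

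Pairs of genes were compared at equal depth, as the share of thinned cells with the one gene among cells with and without the other. Of 79 cells with Eomes, 77.2% held Hes6, against 43.2% of the cells without it, a difference of 34.1 percentage points. Over 10311 genes, the same difference between cells with and without Eomes had a median of 15.4 points, and 0.514% of genes had one larger than that of Hes6. The difference was above 0 for 97.8% of these genes. Even at 100000 counts each, cells with Eomes had a median of 5768 detected genes and cells without it 3216. Cells with Gadd45g held Hes6 in 73.1%, against 42.4% without it, and 1.61% of genes differed more. Cells with Btg2 held Hes6 in 75.6%, against 42.4%, and 4.68% of genes differed more. The pair of Neurog2 and Eomes did not stand above other genes. Cells with Neurog2 held Eomes in 47.2% and cells without it in 32.8%, a difference exceeded by 46.2% of genes. In the other direction, cells with Eomes held Neurog2 in 21.5% and cells without it in 13.0%, a difference exceeded by 81.9% of genes. For Eomes and Neurog1, counted in 5 thinned cells, the difference was -1.47 points. The 90 ordered pairs of the 10 genes had a median difference of 14.1 points, and for the median pair 56.3% of all genes had a larger one. Of the 90 pairs, 1 (Hes6 by Eomes) lay in the top 1% of its genes, close to the share that the ranking itself sets.

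The same comparison was made with 82 genes of companion and marker lists, and 9 of 820 pairs lay in the top 1% of genes, again close to that share. The pairs named here were picked from these 820 after their values were seen. By rank among all genes, the highest 2 belonged to Mfap4. Of 26 thinned cells with Mfap4, 84.6% held Mki67, a gene of dividing cells, and 73.1% held Col3a1, a collagen of mesenchyme, against 37.2% and 26.1% of the cells without Mfap4. Over all genes, 0.0194% differed more than Mki67 and 0.0291% more than Col3a1. Of the 8 cell cycle genes, 7 lay above the median of all genes for Mfap4 (10.8 points). The other mesenchyme genes on the list moved less, with Lum in 34.6% against 14.1% and Col1a1 in 19.2% against 11.6%, and the part of mesenchymal transcripts in the Mfap4 counts was not tested. Of 36 thinned cells with Neurog2, 72.2% held Mki67 and 63.9% held Pax6, a radial glia factor, against 37.04% and 29.6% without it. The cell cycle list had a median of 18.9 points, with 5 of 8 genes above the median of all genes for Neurog2 (13.6 points). Among them was Pcna, in 80.6% against 55.6%. The radial glia list had a median of 10.3 points, with 3 of 10 genes above that of all genes. The smallest differences on these lists were those of Ccnb1, in 25.0% against 22.8%, and Hes1, in 13.9% against 11.1%. The highest rank for Neurog2 was that of Btg1, an antiproliferative relative of Btg2, in 88.9% against 52.4%. Of 21 thinned cells with Rhbdl3, 71.4% held the Notch ligand gene Dll1, against 22.5%. The Notch arm list did not move as a whole, with 3 of 7 genes above the median of all genes for Rhbdl3 (19.9 points) and a list median of 15.3 points. For Neurog2, Dll1 was found in 38.9% against 24.9%, a difference exceeded by 48.0% of genes. For Eomes, the E protein gene Tcf3 was counted in 63.3% of thinned cells with it against 30.8% without it, and 0.97% of genes differed more. Of the 10 radial glia genes, 5 lay above the median of all genes for Eomes (15.4 points). Among them was Pax6, in 54.4% against 24.7%, and 2.42% of genes differed more. Of the 10 young neuron genes, 4 lay above the median of all genes for Eomes. Bcl11b was counted in 86.1% of thinned cells with Eomes against 61.6% without it, and 11.9% of genes differed more. Fezf2 stood at 69.6% against 50%, Tbr1 at 65.8% against 47.9% and Sox5 at 69.6% against 52.7%. Stmn2 and Dcx were near saturation, in 100% of cells with Eomes against 95.9% and 92.5% without it, which caps the difference they could show.

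Levels in single cells were only weakly related. Over the cells with at least 100000 counts, the 36 pairs of the 9 genes counted in at least 25 cells had Pearson correlations of log2(CPM + 1) from 0.04 to 0.34, with a median of 0.17 (0.13 after thinning). All points share the depth of their library and many share a clone. The 3 highest values at full depth were those of Hes6 with Gadd45g (0.34), Eomes (0.32) and Btg2 (0.31). After thinning they were 0.28, 0.29 and 0.30, so their order is not firm, and by Spearman's rho the highest pair was Sstr2 with Rhbdl3 (0.37). Against these stand the correlations with 14909 genes, whose median was 0.17 for Hes6, 0.14 for Eomes and 0.09 for Mfap4. Hes6 ranked 59 among all genes for Gadd45g and 100 for Eomes, and no other of the 10 genes ranked higher for these 2.

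Genes with the most similar levels came from outside the 10, with r between 0.35 and 0.45 in all cases. For Eomes they were Cluh, Dip2a, Exosc7, Aff4 and A530017D24Rik. For Neurog2 they were Krt10, Mocs2, Btbd17 and Pofut1, and for Insm1 Sf3a1, Dnajb2, Zhx3, Nmt2 and Map2k4. Hes6 was followed by Lsm14b, Lonp1, Samm50, Med29 and Fat1. Btg2 had Amdhd2, Ccdc59, Fdx1, Pak1ip1 and Ubn2, and Gadd45g had Tm9sf4, Pgrmc1, Hdac1 and its own relative Gadd45b (r = 0.39). For Sstr2 the list read Rnf103, Slc6a17, Gabra3, Zfp180 and Cacna2d3, for Rhbdl3 Gm8899, Gm6197, Vwa5a, Abca2 and Zdhhc8, and for Mfap4 Rbms1, Crabp1, Ttc38, Rbms2 and Iqcc. After thinning, 1 to 3 of the 5 genes remained among the 5 highest for each gene, so single names in these lists are not firm.

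The clone types were compared on exon counts summed per clone, in 42 SN and 20 N clones with at least 2 kept cells, with plate in the fit. The question is whether clones of the 2 labels differ in this programme. edgeR's quasi-likelihood test called 0 of 11914 genes (0%) at an adjusted p under 0.05, while 2.06% had an unadjusted p under 0.05. None of the 9 genes that passed the filter on low counts was called or had an unadjusted p under 0.05, and Neurog1 did not pass the filter. Marker lists of other cells were read beside the 10 genes, and their part in the values below was not tested. The summed level of 3 choroid plexus genes was 0 to 528 CPM in SN (median 0, 24 of 42 clones at 0) and 0 to 918 CPM in N clones (median 15.3, 5 of 20 at 0), with Ttr at -4.44 ± 1.42 (p = 0.00260, adjusted p = 1). The 3 mesenchyme genes summed to 0 to 364 CPM in SN (median 7.31) and to 0 to 1120.4 CPM in N (median 16.3), with Col1a1 at -2.37 ± 0.94 (p = 0.0139) and Col3a1 at -2.05 ± 1.01 (p = 0.0471). The 10 radial glia genes summed to 325 to 18575 CPM in SN (median 3087) and 472 to 4773 CPM in N (median 2462), with Fabp7 at 0.96 ± 0.36 (p = 0.00937). Fabp7 weighed most in these sums, with clone medians of 1741 (SN) and 1429 CPM (N). Clone medians of other genes on this list went both ways, as for Vim (496 and 425 CPM), Pax6 (16.0 and 28.3 CPM) and Nes (39.4 and 56.2 CPM). Fitted values, which take plate into account, were above 0 for every gene on the list except Hopx (-0.49 ± 0.75), up to 1.20 ± 0.77 (Hes5). Nes at 0.52 ± 0.61 and Pax6 at 0.04 ± 0.67 thus ran against their clone medians. On the young neuron list every gene except Tbr1 (0.26 ± 0.54) was below 0, down to -0.40 ± 0.53 (Fezf2). The smallest unadjusted p on that list was 0.225 (Mapt). Adjusted p-values of these markers were 1 by edgeR's test. Eomes had a log2 difference (SN minus N) of -0.94 ± 0.76 (SE, p = 0.219, adjusted p = 1). The difference of Eomes had the same sign on each plate, with SN minus N means of log2(CPM + 1) of -0.85, -1.93 and -1.69. Hes6 had the opposite sign, 0.54 ± 0.43 (p = 0.219, adjusted p = 1), and plate values of 0.18, 0.60 and 0.15. A single sign on all plates was not particular to these genes. It also held for Gadd45g (-1.34, -0.25 and -1.42), Insm1 (-1.49, -1.88 and -0.15) and Neurog2 (-0.93, -1.08 and -0.14). N clone 45 had kept cells on 2 plates, 3 on plate 2 with 88.4% of its exon counts and 7 on plate 3, and it entered the fit and these values as a plate 3 clone. Without it the plate 3 values were -1.30 for Eomes, 0.11 for Hes6, -1.10 for Gadd45g, -0.42 for Neurog2 and 0.02 for Insm1, whose sign turned. The fitted differences without clone 45 were -0.82 for Eomes and 0.51 for Hes6, with 0 genes called by edgeR and 1.70% of genes at an unadjusted p under 0.05. Insm1 stood at -0.67 ± 0.60, Gadd45g at -0.60 ± 0.67, Btg2 at -0.42 ± 0.62 and Neurog2 at -0.04 ± 0.97. Sstr2 stood at -0.98 ± 0.97, Rhbdl3 at 0.59 ± 1.23 and Mfap4 at 0.68 ± 1.25, whose errors leave changes of several fold in either direction unresolved. For Rhbdl3 and Mfap4 the fitted sign, which takes plate into account, ran against the clone means, 4.31 (SN) and 6.26 CPM (N) for Rhbdl3 and 6.27 and 6.86 CPM for Mfap4, and it turned when plate was left out. The 9 genes had a median of -0.42, with 3 above and 6 below 0, against -0.11 over all genes tested. With each cell of a clone weighing the same, limma gave Eomes -0.94 ± 0.45 (p = 0.0408, adjusted p = 1.00). In simulated clones of the same size the edgeR test recovered 27% of genes changed by 2 and 84% of those changed by 4 on the log2 scale.

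**Figure D4:**
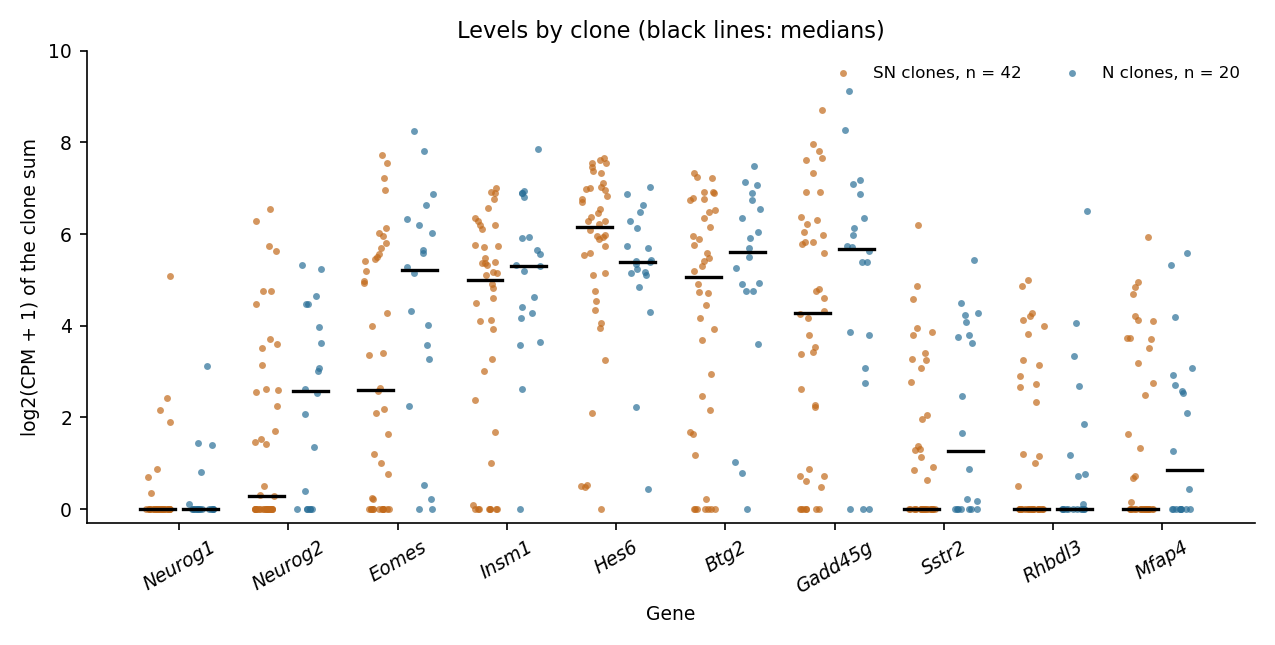
Level of each gene in each clone, as log2(CPM + 1) of the summed counts (vertical axis), for 42 SN and 20 N clones. Points are clones and black lines medians, which for Eomes lie at 5.08 (SN) and 36.4 CPM (N) within overlapping ranges.

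The share of a clone's cells that held each gene was read from the same cells and clones, without a test. Eomes was counted in a mean of 36.1% ± 28.4 (SD, n = 42) of the cells of an SN clone and 49.8% ± 31.3 (SD, n = 20) of those of an N clone. It was found in at least 1 cell of 71.4% of SN and 90% of N clones. N clones are larger, so at least 1 cell is more easily reached in them. Hes6 was counted in a mean of 62.1% ± 27.3 of cells in SN and 60.5% ± 23.6 in N clones. Neurog2 was counted in 23.1% ± 26.8 and 30.2% ± 28.9, and Insm1 in 47.5% ± 32.7 and 50.3% ± 26.8. Gadd45g, at 48.6% ± 33.8 and 47.3% ± 27.6, alone of the tested genes ran against the sign of its fitted difference. Sstr2 was nearly level, at 19.2% ± 24.8 and 19.4% ± 19.0. At equal depth, Eomes was detected in 29.8% of SN and 41.3% of N cells, and Hes6 in 58.7% and 51.0%.

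Genes that work with the 10 were read from 5 lists, and none of their tested members was called. The 3 E proteins that pair with proneural factors were counted in many cells, Tcf4 in 95.95%, Tcf12 in 67.6% and Tcf3 in 53.0%. Their log2 differences of smallest p were -0.27 ± 0.21 for Tcf4 (p = 0.210) and 0.30 ± 0.43 for Tcf12 (p = 0.486). Among other proneural factors, Ascl2 and Atoh7 were counted in 2.02% and 1.62% of cells and did not pass the filter. Of 7 genes of the Notch arm, 5 were above and 2 below 0 (median 0.42), led by the Notch target Hes5 at 1.20 ± 0.77 (p = 0.121) and the Notch-modifying enzyme gene Mfng at 1.51 ± 1.15 (p = 0.191). Of 6 tested bHLH genes of later neurons, 1 was above and 5 below 0 (median -0.19), led by Bhlhe22 at -0.69 ± 0.35 (p = 0.0535) and Neurod2 at -0.62 ± 0.34 (p = 0.0744). Of 13 tested genes of the other intermediate progenitor list, 5 were above and 8 below 0 (median -0.02), led by Gadd45b at -1.25 ± 1.07 (p = 0.245) and Sox11 at -0.20 ± 0.18 (p = 0.279). All adjusted p-values of these lists were 1 by edgeR's test.

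Clone size was fitted as a slope per doubling of the labelled size, in the same 62 clones with plate and clone type as terms. edgeR called 0 of 11914 genes (0%), and 307 (2.58%) had an unadjusted p under 0.05. The 9 tested genes had slopes from -0.03 ± 0.49 (Btg2) to 0.63 ± 0.95 (Rhbdl3) on the log2 scale, 7 above and 2 below 0, with adjusted p-values of 1.00. Eomes had a slope of 0.27 ± 0.77, Insm1 of 0.33 ± 0.60, Hes6 of 0.06 ± 0.37 and Neurog2 of -0.02 ± 1.11. The 5 lists had 0 called genes here too, and the smallest unadjusted p in them was 0.0667, in the list of later neuronal bHLH genes. These slopes share their clones with the comparison of clone types.

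Single large clones differed in which of the genes were counted in their cells, and also in depth. N clone 16, the largest with a labelled size of 19, had Eomes in 10 of its 16 kept cells, Hes6 in 8, Gadd45g in 7, Insm1 in 5 and Btg2 in 4. Neurog1, Neurog2, Rhbdl3 and Mfap4 were counted in none of the 16, which allows a share of up to 18.8% each. N clone 45, of labelled size 13, had Eomes, Insm1, Gadd45g and Hes6 in 4 of its 10 kept cells each and Neurog2 in 0. Together the cells of these 2 clones had Eomes in 53.8% and Neurog2 in 0 of 26 cells, at a median of 1034700 exon counts. That 0 allows a share of up to 11.5% (Wilson limit 12.9%), with sister cells taken as independent draws. N clone 39, of labelled size 10, had Btg2 and Hes6 in 7 of its 9 kept cells, Gadd45g and Insm1 in 6, and Eomes and Neurog2 in 4. Kept cells had 215942 to 8115145 exon counts in clone 16, 6171 to 4433235 in clone 45 and 1402302 to 8121884 in clone 39. The part of depth in the differences between these clones was not tested. At the other end, the 19 kept cells of SN clones of size 2 had Neurog2 in 47.4%, Insm1 in 68.4%, Gadd45g in 68.4% and Hes6 in 73.7%. Those 19 cells had a median of 3231800 exon counts, the second highest of the size classes after N clones of 7 to 10 cells, and depth moves with detection as shown above.

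Green and red cells of the same clone descend from a recombined division, so the colours were compared within clones. The 45 clones with kept cells of both colours (31 SN and 14 N) were fitted with the clone as a block. edgeR called 0 of 7437 genes (0%), and 1.64% had an unadjusted p under 0.05. Of the 10 genes, 5 passed the filter and none was called, with log2 differences (green minus red) of 1.05 ± 1.12 for Insm1, 0.15 ± 1.11 for Btg2, 0.12 ± 0.93 for Gadd45g, 0.07 ± 1.28 for Eomes and -0.07 ± 0.85 for Hes6, all at an adjusted p of 1 by edgeR's test. For Btg2, Gadd45g and Eomes the fitted sign ran against the means over clones, 47.6 (green) and 56.3 CPM (red) for Btg2, 65.7 and 82.1 CPM for Gadd45g and 30.7 and 52.9 CPM for Eomes, so no direction is read from them. The 5 lists likewise had 0 called genes. Eomes was higher in green in 18 clones and in red in 18, with 9 at 0 in both colours. Gadd45g was higher in green in 18 and in red in 19, Hes6 in 19 and 25, Btg2 in 20 and 17, and Insm1 in 24 and 16. The colours of a clone were also compared for detection, with no background from other genes of like detection. Eomes was counted in both colours of 20 clones and in a single colour of 16, and Neurog2 in both colours of 5 and in a single colour of 10 (green) and 11 (red). Neurog1 was counted in green only in 2 clones, in red only in 6 and in both colours in 0. Only 2 SN clones and 0 N clones held Neurog1 in 2 or more kept cells, so elsewhere both colours could not have held it. No colour split is read from these counts. For the genes on chromosome 11, Sstr2 was higher in green in 15 and in red in 12 clones, Rhbdl3 in 10 and 11, and Mfap4 in 8 and 11.

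**Figure D5:**
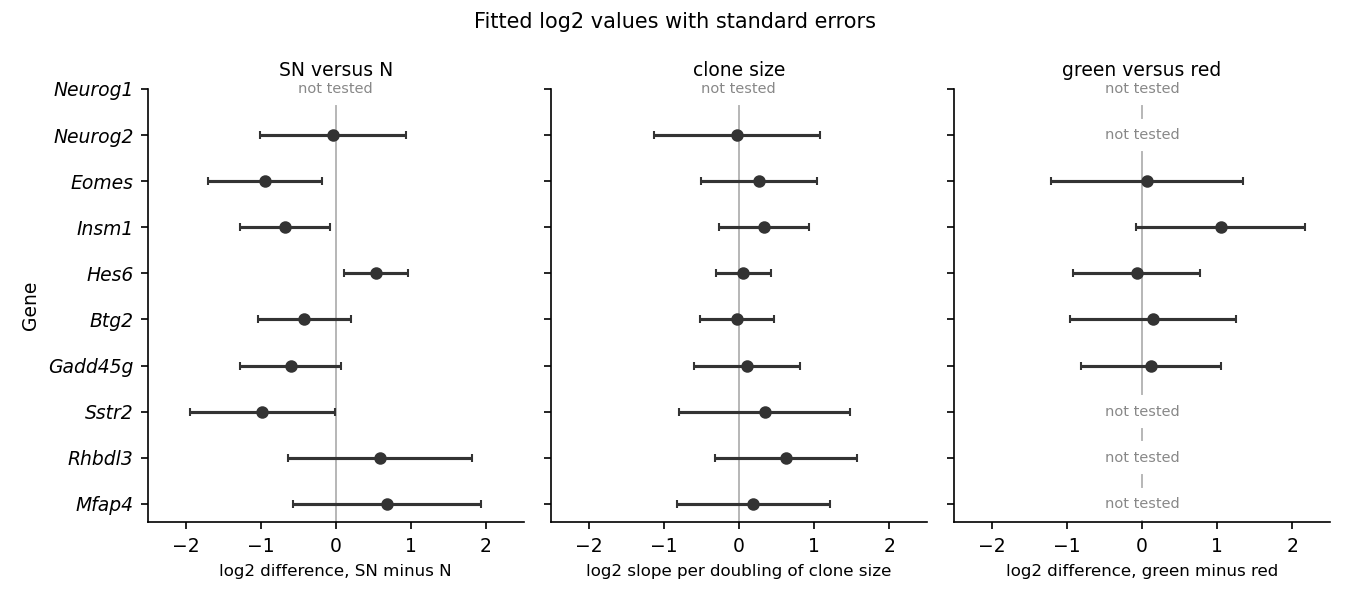
Fitted log2 differences or slopes (horizontal axes) of the 10 genes with standard errors (bars), for SN minus N clones, per doubling of clone size and green minus red. No value is past the threshold, and genes marked as not tested did not pass the filter on low counts.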

How the data were processed

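Single cells were sequenced by Smart-seq3. The authors deposited 2 tables of unscaled counts, one for exons and one for introns, each with 55359 genes in rows and 287 libraries in columns. Per the submitters' processing notes the authors used STAR 2.7.9a, R 4.4.0 and build GRCm39. Which tool and annotation the counting used, whether it used strand, and whether molecular identifiers entered it are not given in the sources used here, so counts are read as reads, not molecules, and intervals and limits cover counting error only. Symbols were matched for 52083 gene IDs.

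Of 284 labelled cells, 247 with a count in at least 1000 genes were kept. Kept cells had 6171 to 13040432 exon counts. The most alike pair of cells had a correlation of 0.888 in log2(CPM + 1), so no library was treated as a duplicate. CPM is exon counts per 1000000 of a cell, or of the TMM-scaled sum of a clone (or a clone and colour). Sums were tested in R 4.3.3 with edgeR 4.0.16 (glmQLFit, glmQLFTest, TMM, filterByExpr), with Benjamini-Hochberg adjustment over all genes tested and a threshold of 0.05. The clone size test used the genes kept for the clone types. Standard errors were derived from the F statistic, by dividing each log2 value by its root. DESeq2 1.42.0, limma 3.58.1 on mean log2(CPM + 1), other scalings, filters, cell sets and clone sets were alternatives. The tests were tried on simulated data. For SN against N, 9.02% of the simulated calls were unchanged genes. In the size test 43% of genes with a log2 slope of 2 per doubling of clone size were recovered, and 84% of those with a slope of 4. In the colour test, on 3000 genes, 11% of genes changed by 2 and 67% of those changed by 4 (log2) were recovered.

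The 10 genes, the companion lists and the marker lists were chosen with earlier results of these data known. Named are the 10 genes, from each companion list every called gene or otherwise the 2 of smallest p between clone types, and the 5 genes most correlated with each of the 10 that was counted in at least 25 cells. Of the genes this rule names, 3 are not reported here. Left out of all comparisons were 3 cells that carry no clone label.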

Additional observations from a re-analysis of the deposited data

Results flagged for a closer look

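Of the 3 cells without a clone label, which entered no comparison, 2 held some of the 10 genes at more than the 3 counts that a count of 0 allows. Unlabelled cell 2, with 5976683 exon counts and 13298 detected genes, held Insm1 at 70.4 CPM, Hes6 at 70.3 CPM, Eomes at 64.6 CPM and Sstr2 at 49.2 CPM. The same cell held Btg2 at 37.8 CPM, Neurog2 at 15.4 CPM and Gadd45g at 10.5 CPM, so 7 of the 10 genes were above the limit in it. Unlabelled cell 1 held Gadd45g at 5.92 CPM, from 10 counts. Unlabelled cell 3, with 2257 exon counts, held 0 counts of all 10 genes, and Neurog1, Rhbdl3 and Mfap4 were at 0 in all 3 cells.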

How the results depend on the processing

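Of the 10 genes, those that passed the filter (9 for clone types and size, 5 for colour) were called under no alternative run, and the lowest adjusted p among them was 0.397 (the Gadd45g slope on clone size with each cell weighing the same). The others were fitted only with no filter on low counts, where none was called and the lowest adjusted p was 0.318, for Neurog1 between clone types (-1.98 ± 1.22). Its fitted sign ran against the clone means, 1.08 (SN) and 0.596 CPM (N), so no direction is read from it. No slope on clone size was fitted for Neurog1. The count of called genes, 0 in each comparison, was 2 for clone types with DESeq2, 2 with cells of at least 2000 genes and 6861 of 39336 with no filter on low counts, among them Atoh7 (-6.01) and Gsx2 (3.87) of the companion lists. It was 1 for clone size with limma, 1 in N clones only and 1 without clone 16, and 1 for colour with the size factors of DESeq2 and 1 with no filter. The cause of these changes was not tested. For clone types, the scaling of DESeq2 moved the median of all genes from -0.11 to 0.000486.

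Leaving out clone 45, whose cells lie on 2 plates, was chosen after seeing the data. Signs turned in 31 values of the 9 tested genes. Between clone types, Neurog2 stood at 0.16 (DESeq2), 0.15 (its size factors), 0.15 (clones of size 4 to 6) and 0.00 (single-cell clones included), Btg2 at 0.02 (size 4 to 6), Rhbdl3 at -0.53 and Mfap4 at -0.13 (no plate term), and Mfap4 at -0.03 (limma). Slopes on clone size in N clones only were -0.03 for Eomes, -0.21 for Insm1, 0.21 for Btg2 and -0.14 for Sstr2. In SN clones only they were 0.53 for Neurog2 and -0.07 for Hes6, without clone 16 they were 0.14 and -0.06, and with the other scaling Neurog2 stood at 0.01. Without clone 45 they were 0.11 for Neurog2, 0.01 for Btg2 and -0.07 for Gadd45g, with 0 genes called. With limma, slopes were -0.10 for Insm1, -0.87 for Gadd45g, -0.66 for Hes6, -0.16 for Sstr2, -0.22 for Rhbdl3 and -0.36 for Mfap4, where the median of all genes was -0.34. The slope of Rhbdl3 was 6.48 ± 3.15 in N clones only (p = 0.0495, adjusted p = 0.999). Green minus red with no replicate block (the clone left out of the fit) was -0.77 for Eomes and -0.30 for Btg2, with 0 genes called, and with limma -0.19 for Eomes, -0.05 for Gadd45g and 0.04 for Hes6.

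Eomes kept its sign between clone types in all 10 alternatives, from -0.63 without its highest clone to -1.40 in clones of size 4 to 6, and Hes6 did so from 0.44 to 1.20. Insm1, Gadd45g and Sstr2 also kept their signs between clone types, so this was not particular to Eomes and Hes6. Rhbdl3 could not be fitted in clones of size 4 to 6. All 10 detection shares left their intervals with at least 10 CPM required, and 6 of 10 did so after thinning. Depth limits what can be said of Neurog1, Neurog2, Sstr2, Rhbdl3 and Mfap4.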
